A study of Mus musculus with 2 samples.

Results

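Cycling T cells were barcodes that carried both T cell receptor complex transcripts and transcripts of dividing cells in single-cell libraries of mouse small intestinal epithelium. A barcode was a member when it had more than 500 detected genes, less than 25% of its UMIs (unique molecular identifiers, each standing for 1 captured transcript) from mitochondrial genes, at least 2 UMIs of Cd3e, Cd3g and Cd3d together, and UMIs of at least 3 of the 8 cell cycle genes Mki67, Top2a, Birc5, Ube2c, Cdc20, Ccnb1, Cenpf and Pclaf. The members were chosen by these measured values, so the levels of those 11 genes describe the choice. The rule found 93 members among 3069 cells that passed the filters from Adipfl/fl mice and 98 among 5555 from Adipfl/flpVilli-CreT mice, 191 of 8624 cells in all.

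The study asked what adiponectin made in the gut epithelium does to stem and transit-amplifying cells. Both genotypes carry floxed alleles of the adiponectin gene, and Adipfl/flpVilli-CreT mice also carry a Cre recombinase under the villin promoter, which is active in epithelial cells and not in T cells. There was 1 library per genotype, from crypt-enriched tissue that was digested with collagenase and papain and cleared of dead cells, and the study's legend gives pooled males aged 8 weeks. Pieces of gut wall digested this way hold lymphocytes beside epithelial cells, and the labelled tissue does not distinguish them. Throughout, values are given for Adipfl/fl first and Adipfl/flpVilli-CreT second.

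Intraepithelial lymphocytes are T cells that lie between the epithelial cells of the gut. Many carry the CD8αα homodimer, either with a γδ receptor or with an αβ receptor, and they are held there by the integrin αE (Itgae) and drawn there by the chemokine receptor Ccr9. They carry preformed granzymes and are known for slow local renewal. A dividing cell first loads MCM helicases and copies its DNA in S phase, while histone genes are transcribed to package the new strand, and then builds a spindle in mitosis with cyclin B, Aurora kinases and kinesins.

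The members held 1055868 and 1325363 UMIs in all. Their median depth was 10358 UMIs (1538 to 32967) and 11090 UMIs (2416 to 71550) per cell, with a median of 3352 and 3472 detected genes. T cells with none of the 8 cycle genes, called resting T cells here, numbered 274 and 371 and were shallower, at medians of 4618 and 4053 UMIs. The rule itself favours deep cells, because a gene is detected more easily in them. The libraries shared 31 barcodes over all 21629, of which 3 were in cells that passed the filters and none was a member. The targeted gene Adipoq had 1 UMI over all 9791 barcodes of Adipfl/fl mice and 0 over the 11838 of Adipfl/flpVilli-CreT mice, and 0 in the members, which allows a share of cells with a UMI of up to 3.23% and 3.06% (3 cells of the total). It does not check the labels.

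Some members also held RNA of other cell types, and more of them did so in the library labelled Adipfl/flpVilli-CreT. Barcodes in which an epithelial gene list or a B and plasma cell list made up at least 0.5% of UMIs were 2 of 93 (2.15%) and 19 of 98 (19.4%), against 17 of 274 (6.20%) and 47 of 371 (12.7%) of resting T cells. Of the 19, 18 were rich in epithelial RNA and 1 held 6018 UMIs of Igkc, the immunoglobulin kappa chain of plasma cells. Doublets were not removed, and the counts and shares that move without these barcodes are given both ways.

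The members carried the T cell markers widely. Cd3g, the gamma chain of the receptor complex, was detected in 93 of 93 and 97 of 98 members, at a median of 22 UMIs per cell in both libraries and 2025 and 1806 CPM (UMIs of a gene per 1000000 UMIs of the class). A median member held 40 UMIs of the 3 Cd3 genes, and 0 and 2 members had only 2 or 3. Fewer than 10 Cd3 UMIs were found in 2 of 93 and 7 of 98 members, and 5 of the latter were barcodes rich in other RNA, 1 of them with 2 Cd3 UMIs of 71550. Just outside that limit, 6 and 15 cycling barcodes had 1 Cd3 UMI. These values are the rule's own and are no check of the label. Trac or Trdc, receptor constant chains that the rule did not use, were detected in every member except 1 in the Adipfl/flpVilli-CreT library.

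The cycle genes of the rule were spread over the members unevenly. Mki67, a marker of all cycling phases, was detected in 93.5% and 95.9% of members at 725 and 466 CPM. Top2a, the topoisomerase that untangles replicated DNA, was detected in 84.9% and 81.6% at 973 and 653 CPM. Pclaf was detected in 92.5% and 95.9%, Birc5 in 84.9% and 87.8%, Ube2c in 68.8% and 72.4% and Cenpf in 66.7% and 58.2%. The rarest of the 8 were Cdc20 and Ccnb1. Cdc20, the activator of the anaphase-promoting complex, was in 47.3% and 46.9% of members and Ccnb1, cyclin B1, in 43.0% and 37.8%. All 8 genes were found in 21 and 26 members. At the threshold, 14 and 15 members had exactly 3 of the genes, with 3052 and 3297 CPM of a mitosis list of 42 other genes, and 19 and 20 T cells just outside it had 2 genes, with 2325 and 940 CPM. Members with all 8 genes had 15883 and 13320 CPM of the same list. A DNA replication list of 35 genes went the other way among members, at 5137 and 4767 CPM with 3 genes and 4050 and 2431 CPM with all 8. T cells with 2 genes had 3437 and 1345 CPM of it. Among members the number of rule genes thus rose with the mitosis list and not with the replication list.

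Cycling cells made up 20.3% of T cells in Adipfl/fl (93 of 459, 95% exact interval 16.7 to 24.2) and 17.0% in Adipfl/flpVilli-CreT (98 of 578, 13.98 to 20.3). The ratio of the genotypes was 0.837 (0.624 to 1.12), so a difference was not detectable at this number of cells. These intervals cover counting error only, and with 1 library per genotype no test between the genotypes exists. When every T cell was thinned to 2000 UMIs before the rule was applied, 13.3% (58 of 435) and 12.1% (61 of 505) were cycling, and without the barcodes rich in other RNA 21.0% (91 of 434) and 16.2% (79 of 488). Taken over all cells that passed the filters the shares were 3.03% and 1.76%, a ratio of 0.582 (0.434 to 0.782), a denominator that holds mostly epithelial cells.

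Single members held DNA replication and mitosis transcripts in very different proportions. The DNA replication list (35 genes, among them the MCM helicases, Pcna and the ribonucleotide reductases) had a median of 53 UMIs per cell (3 to 318) and 39 (1 to 175), and the mitosis list a median of 118 (8 to 362) and 100.5 (10 to 437). Replication made up a median of 31.3% of the UMIs of both lists in each library, from 2.45% to 77.6% in Adipfl/fl and from 1.61% to 81.5% in Adipfl/flpVilli-CreT. Cells with more replication than mitosis UMIs were 24 of 93 (25.8%) and 27 of 98 (27.6%). Both libraries thus held a like range of proportions with all members, as the plot of the 2 sums per cell shows. Without the barcodes rich in other RNA the median was 31.3% and 35.0%. The mitosis list summed to 12161 and 11930 UMIs in the members. Its gene Hmgb2, a chromatin protein abundant in dividing cells, held 9011 of these over both libraries. Hmgb2 therefore weighs heavily in the mitosis sum of a cell. The split into replication-rich and other members was not tested without Hmgb2, nor were the comparisons that use this split.

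**Figure D1:**
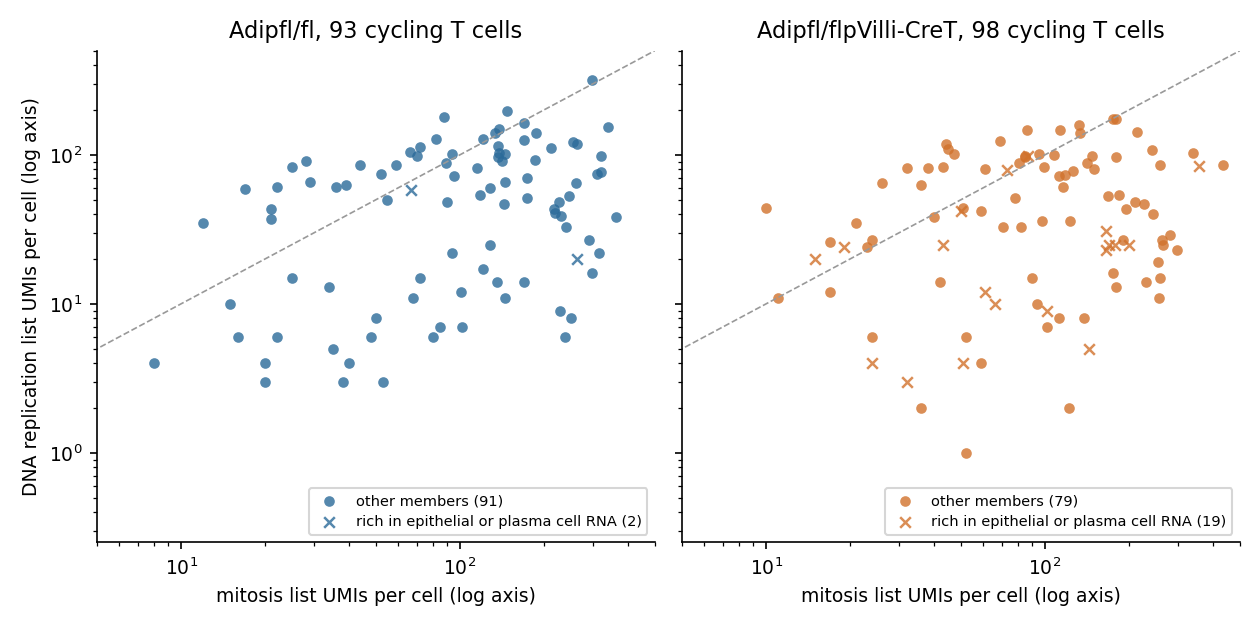
UMIs of the mitosis list (x) and of the DNA replication list (y) in each cycling T cell, on log axes, 1 panel per library, where crosses are barcodes rich in epithelial or plasma cell RNA and the dashed line marks equal sums. In both panels most cells lie below the line, and 24 and 27 cells lie above it, with Hmgb2 counted in the mitosis list.

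The captured histone sum was not lower in the cells richer in mitosis UMIs. How fully the 3′ kit captures histone transcripts was not tested, here or in the comparisons below. The replication-dependent histone genes made up 3621 and 2802 CPM in the members with more replication UMIs and 5430 and 3611 CPM in the others. H1f5 (ENSMUSG00000058773), a linker histone, was at 993 and 477 CPM in the former and 1139 and 500 CPM in the latter. Mki67, in contrast, was at 367 and 316 CPM against 870 and 514 CPM. Xcl1 (ENSMUSG00000026573), a chemokine that attracts cross-presenting dendritic cells, was at 950 and 427 CPM in the replication-rich members and 587 and 254 CPM in the others, but 94.8% and 97.8% of its UMIs in the former lay in 5 cells. With the highest cell of each set left out it was at 451 and 237 CPM against 432 and 198 CPM, and it was detected in 29.2% and 29.6% of the former and 23.2% and 32.4% of the latter, so no order is read from it. Without the rich barcodes 24 of 91 and 23 of 79 members had more replication UMIs, with a histone sum of 3621 and 3357 CPM against 5384 and 5056 CPM in the others. These sums have no test, since the cells of 1 library are not replicates.

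For gene levels, UMIs were summed per library and class, and cycling and resting T cells were compared in both libraries by edgeR's quasi-likelihood test with the library as a block and Benjamini-Hochberg adjustment over all genes. The 2 libraries, which differ in genotype, stand as the replicates, so the p-values measure only the spread between these samples. Of 9491 genes tested, 1679 (17.7%) were higher and 897 (9.45%) lower in cycling T cells at an adjusted p under 0.05, and 2568 of the 2576 called genes had the same sign in both libraries. DESeq2 called 409 and 106, and a rule of at least 2 cycle genes gave 455 and 66. "Rose" and "fell" refer to the share of a class's UMIs. Cycling T cells held 11353 and 13524 UMIs per cell on average and resting T cells 4776 and 4534, so 543 of the 897 genes that fell still had more UMIs per cell in cycling T cells in both libraries, and 96 had fewer in both.

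The genes of the cell cycle lists are close to the genes of the rule, and their counts describe what the rule selected. In the DNA replication list 34 of 35 genes rose, with a median log2 fold change of 2.71 (1.08 to 6.51), and in the mitosis list 41 of 42, with a median of 5.31 (5.25 with 6 genes at 0 set to their bound). The 2 genes that did not pass were Ung, which removes uracil from DNA, at a log2 fold change of 1.62, and Pttg1, securin, at 48.3 and 52.1 CPM against 45.1 and 54.7 CPM. Mcm6, a subunit of the replicative helicase, was at 196 and 155 CPM in cycling and 53.5 and 49.9 CPM in resting T cells. Dut, which keeps uracil out of DNA, was at 716 and 600 CPM against 94.7 and 109 CPM. Hmgb2, a chromatin protein abundant in dividing cells, was at 4340 and 3341 CPM against 413 and 376 CPM. Each of these 3 genes was thus several-fold higher in both libraries.

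Of the replication-dependent histones, 32 of 58 had enough UMIs to be tested and 31 rose, with a median log2 fold change of 4.01. H1f5 had 1097 and 494 CPM in cycling and 5.35 CPM in resting T cells of both libraries, a log2 fold change of 7.18 ± 0.23 (SE). H2ac24, an H2A gene, had 560 and 909 CPM against 6.88 and 17.8 CPM. H2bc4 was the 1 tested histone gene that did not pass, at 49.2 and 65.6 CPM against 34.4 and 61.2 CPM. H1f5 was detected in 71.0% and 61.2% of members, and after thinning each cell to 2000 UMIs in 56.5% and 48.0%, against 2 of 258 and 4 of 332 resting T cells.

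Promoters of genes from these lists are shown for the motif letters they hold. Whether the genes move together through the division cycle was not tested. Hmgb2 and Mcm6 were picked as the genes with the most UMIs in the members among those already holding the motifs marked in them. Their matches were thus fixed by the choice and do not speak for their lists. H1f5 is shown as a leading gene of the members. In the 250 bases before the RefSeq start (GRCm38.p6), both strands were searched for the CHR element (TTTGAA or TTTAAA), the CCAAT box (CCAAT) and E2F sites (TTTCCCGC, TTTCGCGC, TTTGCCGC or TTTGGCGC). Capitals mark CHR and CCAAT matches on either strand in Hmgb2 (chr8:57511593-57511842, plus strand) and H1f5 (chr13:21780626-21780875, minus strand), and E2F matches in Mcm6 (chr1:128359706-128359955, minus strand), each written 5′ to 3′ on the gene's strand.
Hmgb2: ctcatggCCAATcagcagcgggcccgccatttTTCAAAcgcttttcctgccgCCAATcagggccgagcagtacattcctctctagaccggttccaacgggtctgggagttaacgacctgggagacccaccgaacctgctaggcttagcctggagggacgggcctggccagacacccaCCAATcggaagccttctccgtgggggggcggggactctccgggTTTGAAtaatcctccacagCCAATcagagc
Mcm6: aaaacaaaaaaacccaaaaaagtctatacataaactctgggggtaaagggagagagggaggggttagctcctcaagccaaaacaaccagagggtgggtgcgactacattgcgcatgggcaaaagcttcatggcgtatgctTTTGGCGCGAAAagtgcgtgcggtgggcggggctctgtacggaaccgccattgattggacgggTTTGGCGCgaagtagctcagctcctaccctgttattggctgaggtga
H1f5: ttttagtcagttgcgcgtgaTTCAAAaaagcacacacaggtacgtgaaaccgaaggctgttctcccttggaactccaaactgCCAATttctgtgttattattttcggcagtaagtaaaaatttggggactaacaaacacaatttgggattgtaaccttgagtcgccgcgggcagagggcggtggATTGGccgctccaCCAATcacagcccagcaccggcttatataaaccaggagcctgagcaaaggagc
Over all 27025 genes with a promoter in the table, 28.1% held a CHR, 37.5% a CCAAT box and 2.16% an E2F site. The mitosis genes (35 of 42 matched) held them in 14 (CHR), 27 (CCAAT) and 1 (E2F) of 35 genes, the DNA replication genes (29 of 35 matched) in 7, 17 and 8 of 29, and the histone genes (52 of 58 matched) in 34, 43 and 8 of 52. E2F letters were thus commonest in the replication list at 27.6% of genes, and CCAAT letters stood in 77.1%, 58.6% and 82.7% of the 3 lists. Such a match is a description of letters, not of binding.

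The 10 largest rises among genes of at least 50 CPM were all of genes with 0 UMIs in the resting T cells of both libraries, so their folds are lower bounds, computed against 3 UMIs per library. Ccna2, cyclin A2, had 251 and 220 UMIs in cycling T cells, at least 104-fold and 93.1-fold higher. Hmmr, a spindle protein, was at least 66.1-fold and 63.9-fold higher, and Aspm, which acts at spindle poles, at least 44.6-fold and 43.1-fold. The others were H2ac4, Esco2, Ckap2l, Neil3, Bub1, Pimreg and Mxd3, with bounds from 24.8-fold to 48.8-fold in Adipfl/fl. These genes lie close to the rule as well, and DESeq2 called 1 of the 10, Pimreg.

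The regulators that set entry into the cycle moved in both directions, 13 of 21 up and 4 down. DESeq2 and the rule of at least 2 cycle genes each called 8 up, and thinned sums 4. E2f1, a transcription factor of S phase genes, was at 49.2 and 30.2 CPM in cycling and 5.35 and 3.57 CPM in resting T cells. Cdk4, the kinase of early G1, was at 132 and 118 CPM against 48.9 and 44.6 CPM (log2 fold change 1.504 ± 0.19, adjusted p = 1.5e-07 by edgeR's quasi-likelihood test). Cdkn2c, an inhibitor of Cdk4 and Cdk6, rose as well, from 9.93 and 13.1 CPM to 81.5 and 58.1 CPM. In contrast the antiproliferative genes Btg1 and Btg2 fell: Btg1 was at 741 and 592 CPM in cycling and 1846 and 1781 CPM in resting T cells (log2 fold change -1.37 ± 0.11, adjusted p = 4.2e-11 by the same edgeR test). Ccnd2, cyclin D2, fell from 646 and 539 CPM to 263 and 345 CPM, while Ccnd3, cyclin D3, did not pass the test (114 and 63.4 CPM in cycling, 80.2 and 71.3 CPM in resting). Myc, a driver of growth, was at 61.6 and 50.6 CPM against 58.1 and 44.0 CPM and did not pass either (adjusted p = 0.48 by edgeR).

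The members held receptor and coreceptor genes of several T cell types, and their place in the tissue was not measured. UMIs of both Trac (αβ receptor) and Trdc (γδ receptor) were found in 46.2% (43 of 93) and 49.0% (48 of 98) of members, Trac alone in 43.0% and 38.8%, and Trdc alone in 10.8% (10 cells) and 11.2% (11 cells). Deep cells show both chains more often, so cells were thinned to 2000 UMIs before they were set beside resting T cells, which left 92 and 98 cycling and 258 and 332 resting cells. Trdc alone was then found in 30.4% (21.3 to 40.9) and 26.5% (18.1 to 36.4) of cycling and in 78 of 258 (30.2%) and 83 of 332 resting T cells. Trac alone was in 40.2% and 32.7% of cycling and 38.4% and 39.5% of resting cells. At equal depth Trdc alone thus differed between cycling and resting T cells by less than the counting intervals. Without the rich barcodes Trdc alone was in 31.1% and 30.4% of cycling cells.

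Most members had Cd8a without Cd8b1 or Cd4, the pattern of CD8αα cells, in 78.5% and 71.4%, and Cd8a with Cd8b1 in 11.8% and 18.4%. Cd4 was detected in 3.23% and 1.02%. None of the 10 and 11 members with Trdc alone had a Cd8b1 UMI, and resting epithelial cells, which should lack these genes, had each receptor or Cd8 gene in at most 0.96% of cells. After thinning, Cd8a was found in 71.7% (61.4 to 80.6) of cycling and 72.5% of resting cells in Adipfl/fl, and in 57.1% (46.7 to 67.1) against 76.2% (71.3 to 80.7) in Adipfl/flpVilli-CreT. Without the rich barcodes the latter pair was 64.6% (51 of 79) and 80.1%, so the lower share in cycling cells was seen in 1 library. The plot of thinned shares sets these genes beside the epithelial background.

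**Figure D2:**
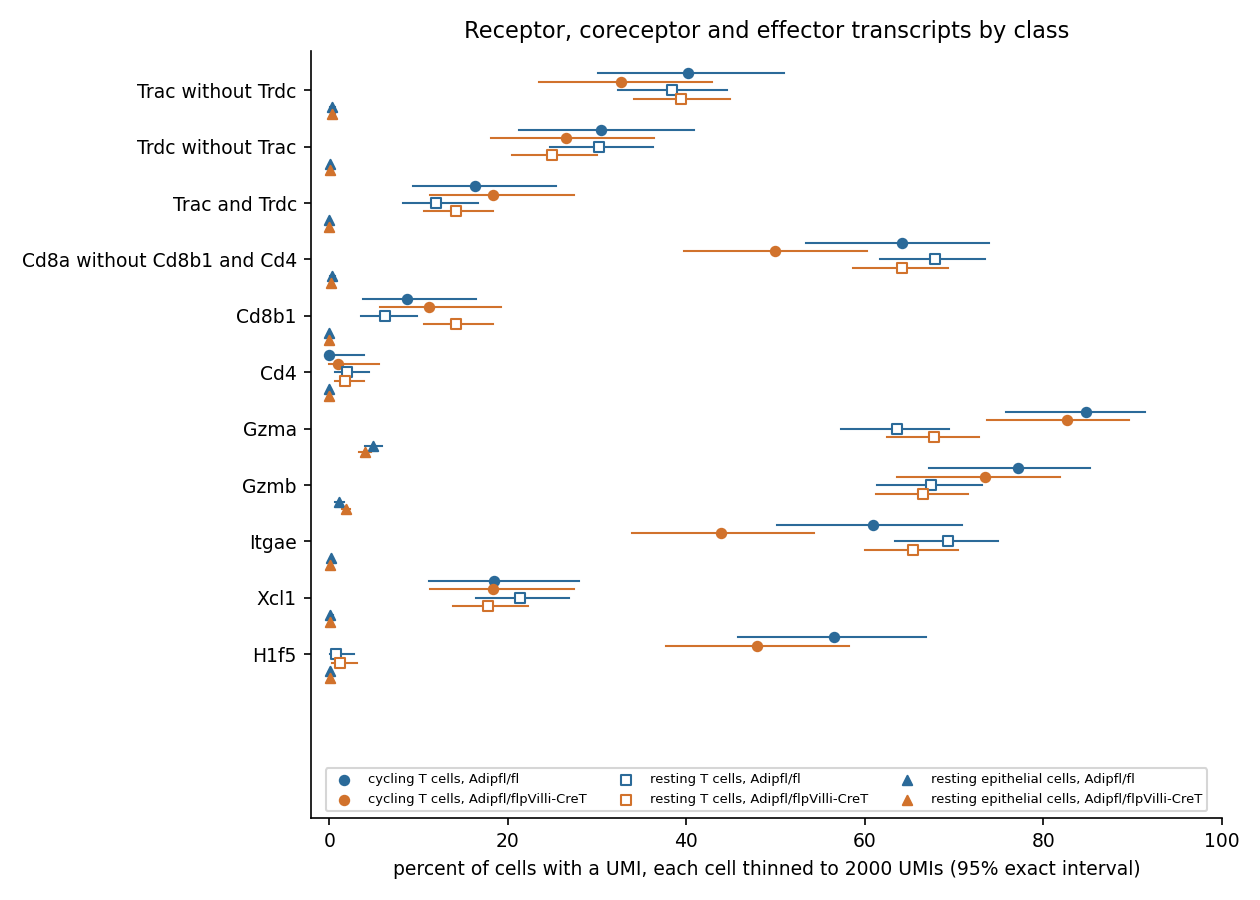
Percent of cells with a UMI of each gene after thinning to 2000 UMIs, for cycling T, resting T and resting epithelial cells of both libraries, with 95% exact binomial intervals that cover counting error only. H1f5 separates cycling from resting T cells (56.5% and 48.0% of cycling cells against 2 of 258 and 4 of 332 resting cells), while Xcl1 is at like shares in both (18.5% and 18.4% against 21.3% and 17.8%).

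In CPM the αβ and γδ constant chains did not pass the test. Trac was at 521 and 361 CPM in cycling and 488 and 448 CPM in resting T cells, and Trdc at 508 and 417 against 632 and 570 CPM (log2 fold change -0.30 ± 0.13, adjusted p = 0.091 by edgeR's quasi-likelihood test). Cd8a fell, from 1038 and 941 CPM to 722 and 536 CPM (-0.58 ± 0.12, adjusted p = 0.00043 by edgeR), although a cycling cell held 8.19 and 7.26 Cd8a UMIs against 4.96 and 4.26. Cd4 had 4 and 1 UMIs in cycling and 23 and 24 UMIs in resting T cells and fell in the same test, a call that DESeq2 did not make. Of 18 genes of receptor signalling, 4 fell and none rose, against 9.45% lower over all genes, with a median log2 fold change of -0.25. Ptprc (CD45), a phosphatase that sets the threshold of receptor signalling, was at 1061 and 696 CPM against 1333 and 1174 CPM. DESeq2 called none of the 18, and all 4 that fell had more UMIs per cell in cycling T cells, as had 543 of all 897 genes that fell.

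**Figure D3:**
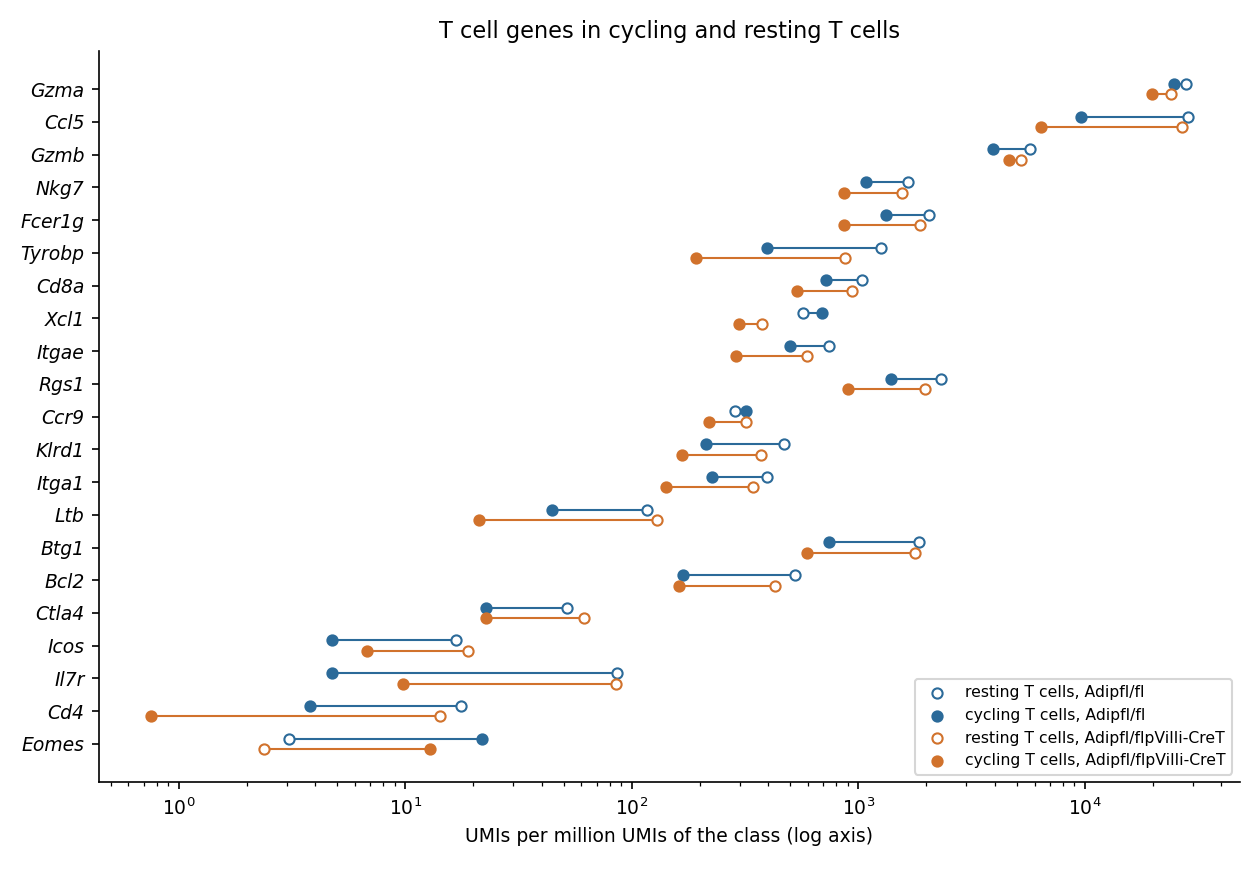
CPM of 21 T cell genes in cycling (filled) and resting (open) T cells of both libraries, on a log axis, with each point a sum over the cells of 1 library. Il7r and Ccl5 lie well apart between the classes in both libraries, while the points of Gzma, Xcl1 and Ccr9 lie close together.

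Among cytotoxic effectors and natural killer receptors, 23 of 26 genes were tested, 11 fell and none rose, against 9.45% lower over all genes. Ccl5, a chemokine stored by memory and effector T cells, fell from 28529 and 26811 CPM to 9625 and 6398 CPM (log2 fold change -1.73 ± 0.12, adjusted p = 3.1e-05 by edgeR's quasi-likelihood test). It also fell per cell, from 136 and 122 UMIs to 109 and 86.5. Tyrobp, the signalling adaptor DAP12 of natural killer receptors, fell from 1255 and 875 CPM to 395 and 193 CPM and from 5.996 and 3.97 to 4.48 and 2.61 UMIs per cell. Klrb1c, the receptor NK1.1, had 5 and 0 UMIs in cycling and 32 and 35 in resting T cells. These 3 were the genes of the list with fewer UMIs per cell in both libraries. The other 8 that fell had more, as had 543 of all 897 genes that fell.

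The granzymes behaved differently from Ccl5. Gzma, granzyme A, was at 24861 and 19848 CPM in cycling and 28078 and 24083 CPM in resting T cells and did not pass the test (log2 fold change -0.14 ± 0.07, adjusted p = 0.16 by edgeR), and a cycling cell held 282 and 268 Gzma UMIs against 134 and 109. Gzmb, granzyme B, was at 3930 and 4651 against 5732 and 5222 CPM (-0.27 ± 0.10, adjusted p = 0.041 by edgeR), a call that was lost without the rich barcodes and with DESeq2. Nkg7, a granule membrane protein, fell from 1661 and 1567 CPM to 1086 and 864 CPM. Klrd1 (CD94) fell from 470 and 373 to 212 and 168 CPM. Over the list, DESeq2 called 7 genes lower and the rule of at least 2 cycle genes 4.

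Xcl1 did not mark the cycling cells. It had 692 and 297 CPM in cycling and 569 and 376 CPM in resting T cells (log2 fold change 0.06 ± 0.15, adjusted p = 0.80 by edgeR's quasi-likelihood test), with the order reversed between the libraries. It was detected in 24.7% and 31.6% of members, and 60.7% and 59.5% of its UMIs in the members lay in 5 cells of each library, the highest with 161 and 64 UMIs. A few cells therefore set its level.

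Genes of tissue residence and trafficking also fell or did not pass. Of 19 genes, 16 were tested, 8 fell and none rose, against 9.45% lower over all genes. The median log2 fold change was -0.58. Itgae, the αE integrin that binds E-cadherin, fell from 744 and 591 CPM to 500 and 289 CPM (-0.71 ± 0.14, adjusted p = 0.00023 by edgeR), while each cycling cell held 5.68 and 3.91 UMIs against 3.55 and 2.68. Itga1, the α1 integrin that binds collagen, fell from 397 and 344 to 226 and 141 CPM. Rgs1, a brake on chemokine receptor signalling, fell from 2319 and 1973 to 1399 and 902 CPM. Ccr9 (319 and 219 CPM in cycling, 287 and 319 in resting) and Cd69, which retains T cells in tissue (325 and 217 against 296 and 256 CPM), did not pass. Ccr7, a receptor that guides T cells to lymph nodes, had 0 UMIs in the members. Of the 8 genes that fell, 7 had more UMIs per cell in both libraries, as had 543 of all 897 genes that fell. DESeq2 called 4 of the 8, and the rule of at least 2 cycle genes called none.

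Il7r, the receptor of the survival cytokine interleukin-7, fell the most of the genes that reached 50 CPM in either class. It was at 86.3 and 85.6 CPM in resting and 4.74 and 9.81 CPM in cycling T cells (log2 fold change -3.42 ± 0.30, adjusted p = 1.7e-10 by edgeR's quasi-likelihood test), and at 0.412 and 0.388 against 0.0538 and 0.133 UMIs per cell. It belongs to a list of resting and memory factors of which 5 of 8 fell and none rose, against 9.45% lower over all genes. The median log2 fold change of the list was -1.13. Bcl2, which blocks apoptosis, fell from 523 and 428 to 168 and 162 CPM (-1.43 ± 0.15, adjusted p = 3.9e-09 by edgeR). Tcf7, the transcription factor TCF-1 of memory and precursor T cells, fell from 119 and 110 to 60.6 and 39.2 CPM. DESeq2 and the rule of at least 2 cycle genes each called 2 of the 8. The other large falls were Gm26740, Ltb (lymphotoxin beta), Pim2 (a survival kinase), Il12rb2 (a chain of the interleukin-12 receptor), Tyrobp, Ccl5, Gbp8, Crebrf and Zbtb20, at log2 fold changes from -1.89 to -1.67.

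Activation and costimulation genes were not higher in the cycling T cells as a share of UMIs. Of 15 tested, 5 fell and none rose, against 9.45% lower over all genes. Per cell, 13 of the 15 had more UMIs in cycling T cells in both libraries, as had 8531 of all 9491 genes. Of the 5 that fell, 3 had more UMIs per cell in both libraries and 1 had fewer. Lag3, an inhibitory receptor, fell from 87.1 and 61.2 to 31.3 and 16.6 CPM, and Ctla4, another, from 52.0 and 61.8 to 22.7 and 22.6 CPM. Il2rb, the β chain through which interleukin-15 signals, fell from 837 and 640 to 530 and 421 CPM, while each cycling cell held 6.02 and 5.69 UMIs of it against 3.996 and 2.90. DESeq2 called only Lag3 of these 3. The count of falls was 9 without the rich barcodes.

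Eomes, a T-box factor of cytotoxic lymphocytes, was the 1 gene of the lineage list that rose (3 of 10 fell, against 9.45% over all genes). It had 23 and 17 UMIs in cycling and 4 and 4 in resting T cells (log2 fold change 2.69 ± 0.55, adjusted p = 0.00031 by edgeR's quasi-likelihood test), and DESeq2 did not call it. Ikzf2, Helios, a factor of unconventional intraepithelial T cells, fell from 1129 and 993 to 836 and 560 CPM.

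**Figure D4:**
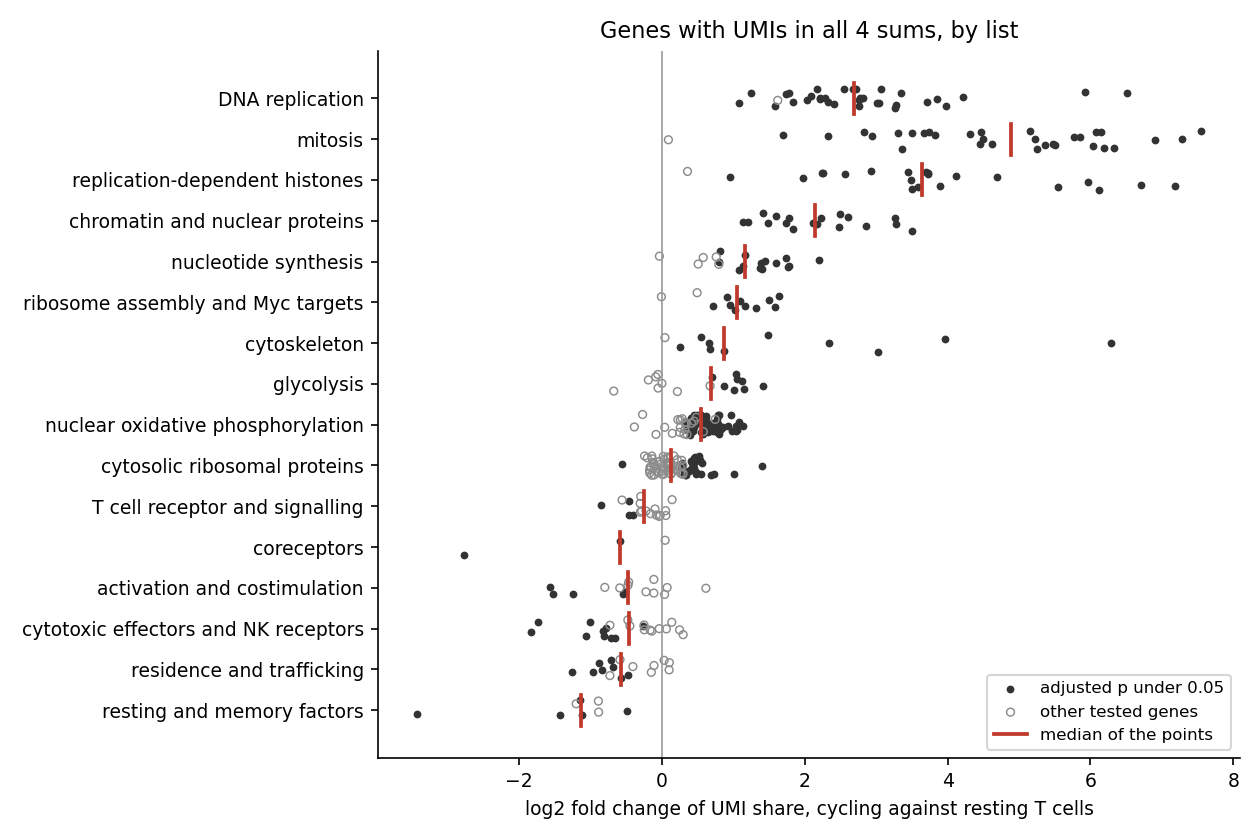
Log2 fold change of cycling over resting T cells for each gene with UMIs in all 4 sums, by gene list, where filled points have an adjusted p under 0.05 by edgeR and red bars mark the median of the points. The cell cycle, histone and chromatin lists lie to the right of 0 and the T cell lists mostly to the left.

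Genes of biosynthesis rose beside the cell cycle, and none of these lists was used by the rule. Of 20 tested genes of nucleotide synthesis 15 rose and none fell, against 17.7% higher over all genes, with a median log2 fold change of 1.27. Dctpp1, which clears modified deoxynucleotides, was at 119 and 149 CPM in cycling and 29.8 and 32.1 CPM in resting T cells (2.20 ± 0.20, adjusted p = 2.1e-10 by edgeR's quasi-likelihood test). Impdh2, the rate-limiting enzyme of guanine nucleotide synthesis, rose from 36.7 and 27.9 to 82.4 and 82.2 CPM. The Dctpp1 groups were several-fold apart in both libraries. DESeq2 called 3 of the list.

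Of 16 tested glycolysis genes, 8 rose and none fell, against 17.7% higher over all genes. Gapdh was at 1064 and 936 CPM against 500 and 556 CPM (log2 fold change 1.00 ± 0.12, adjusted p = 1.8e-07 by edgeR), and Ldha, which makes lactate, at 650 and 716 against 318 and 389 CPM. Among nuclear genes of oxidative phosphorylation, 57 of 77 rose and none fell, at the smaller median of 0.55, and DESeq2 called 12. Ribosome assembly genes rose in 10 of 12 (3 with DESeq2, 6 after thinning), with Npm1, a nucleolar chaperone, at 1040 and 1119 against 585 and 542 CPM, and Ncl, nucleolin, at 972 and 863 against 560 and 448 CPM. The cytosolic ribosomal proteins had 27 of 78 higher and 1 lower at a median of 0.13, but 7 higher and 12 lower when cells were thinned to 2000 UMIs, so no direction is given for them. Rps2 of that list was at 3182 and 2826 against 1683 and 1486 CPM.

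All 18 chromatin and nuclear proteins rose, and did so under each of the 13 alternative settings. H2az1, a histone variant, was at 2988 and 2548 CPM against 500 and 547 CPM. Ezh2, the methyltransferase that silences genes through histone H3, was at 232 and 189 against 37.4 and 24.97 CPM (log2 fold change 2.86 ± 0.19, adjusted p = 7.5e-14 by edgeR's quasi-likelihood test). Of 11 cytoskeleton genes 10 rose, Stmn1, a microtubule destabiliser, from 10.7 and 13.1 to 1070 and 755 CPM and Actb from 8555 and 9468 to 13871 and 13087 CPM. Junb, an immediate early gene that tissue digestion can raise, fell from 1805 and 1687 to 794 and 672 CPM. It belongs to a stress list of which 1 of 10 tested genes rose and 2 fell, or 6 fell after thinning to 2000 UMIs, and the part of digestion was not tested.

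RNA of other cell types differed between the classes as well. Of 10 epithelial genes none passed the test, of 11 enterocyte genes 8 fell with a median log2 fold change of -1.14, and of 7 goblet genes 1 rose. Without the rich barcodes 6 of the epithelial genes, 9 of the enterocyte genes and 4 of the goblet genes were lower in cycling T cells. The epithelial list summed to 768 and 4419 CPM in the members, and to 516 and 581 CPM without the rich barcodes. A share of this same list defines most of those barcodes, so the drop follows from the choice. The part of RNA of other cell types in the lists above was not tested beyond these counts.

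Cycling T cells were also set beside the other cycling cells of the libraries, 83 and 272 epithelial cells that passed the same cycle rule with no UMI of the Cd3 genes or Ptprc, for cell cycle genes only. Of 10578 genes tested, 1732 (16.4%) were higher and 714 (6.75%) lower in cycling T cells by edgeR's quasi-likelihood test. In the DNA replication list 26 of 35 genes were higher and none lower, with a median log2 fold change of 2.03, and this count ran from 18 to 34 over the settings. Rrm2, the ribonucleotide reductase subunit that limits S phase, was at 256 and 173 CPM in cycling T cells and 20.3 and 23.5 CPM in cycling epithelial cells. Dut was at 716 and 600 against 72.5 and 86.1 CPM, and Pcna, the sliding clamp, at 470 and 287 against 92.7 and 109 CPM. Each of the 3 was higher in cycling T cells in both libraries. The epithelial cells were deeper, at medians of 20685 and 18133 UMIs, and the part of depth in these differences was not tested. Leaving the rich barcodes out of the cycling T cells gave 3263 genes higher and 3536 lower over all genes, and 34 of the DNA replication list higher.

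Of the 5 lists compared between both kinds of cycling cell, the histone list had the largest median, with 25 of 35 genes higher and 1, H2bc4, lower, at a log2 fold change of 2.93. H1f5 was at 1097 and 494 CPM in cycling T cells and 56.5 and 37.2 CPM in cycling epithelial cells (4.15 ± 0.21, adjusted p = 0.0043 by edgeR's quasi-likelihood test). In the mitosis list 22 of 42 genes were higher and 1, the tubulin Tubb4b (315 and 384 against 684 and 667 CPM), lower, a count of higher genes that ran from 9 to 35 over the settings, the highest without the rich barcodes. The histone count ran from 9 to 35 as well. Ccna2 did not pass with all members and passed without the rich barcodes. Of the regulators 11 of 22 were higher (5 to 15 over the settings) and 2 lower: Myb, a factor of progenitor cells, was at 19.9 and 37.7 CPM against 138 and 133 CPM in epithelial cells, and Ccnd2 was also lower, a call that DESeq2 did not make.

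Between the genotypes, members were compared by their summed UMIs with exact intervals of the fold that cover counting error only. Of 8932 genes with at least 20 UMIs, 1025 (11.5%) were at least 2-fold higher in Adipfl/flpVilli-CreT and 283 (3.17%) at least 2-fold lower. When the rich barcodes were left out, 118 (1.51%) and 199 (2.54%) of the 7829 genes that still had 20 UMIs were. Over the same 8932 genes the counts without them were 294 higher and 304 lower.

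The 5 largest rises were of plasma cell, goblet and stem cell transcripts, and single barcodes set most of their values. In Adipfl/flpVilli-CreT the top barcode of each gene held 99.7% of its UMIs for Igkc, 77.7% for Agr2, 99.7% for Reg4, 96.2% for Olfm4 and 99.1% for Jchain. Igkc had 14 UMIs in Adipfl/fl and 6035 in Adipfl/flpVilli-CreT, a fold of 343 (205 to 629), and 0.927 (0.381 to 2.20) without the rich barcodes. Agr2, a goblet cell chaperone of mucin folding, went from 1 to 358 UMIs, a fold of 285 (50.9 to 11296), and from 1 to 8 without them. Reg4 went from 1 to 287 UMIs, Olfm4, a stem cell marker, from 2 to 290, and Jchain, the joining chain of secreted antibodies, from 0 to 352, at least 93.5-fold. Without the rich barcodes these 3 had 1, 0 and 2 UMIs in Adipfl/flpVilli-CreT. Igkc and Jchain belong to the B and plasma cell list that defines such barcodes, so their drop follows from the choice. The goblet list still summed to 448 CPM against 171 CPM in Adipfl/fl then, with 6 of 7 genes at least 2-fold higher and a median log2 fold of 1.63. In Adipfl/flpVilli-CreT the 5 cells with the most goblet UMIs held 92.4% of them with all members, and 17.2% without the rich barcodes. Resting T cells without the rich barcodes had 843 CPM of the goblet list in Adipfl/flpVilli-CreT against 292 CPM in Adipfl/fl.

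The largest falls were smaller and less tied to those barcodes. Ly6c2, a surface protein of memory CD8 T cells, had 80 UMIs in 7 cells and 25 UMIs in 5 cells, a fold of 0.249 (0.152 to 0.394), and 0.221 without the rich barcodes. In each library 1 member held 40% of these UMIs, and in resting T cells Ly6c2 was at 0.495 (0.234 to 1.01). Mir6236 had a fold of 0.266, H2bc18 of 0.303, Map4k2 of 0.355 and Vav1, an exchange factor below the T cell receptor, of 0.324 (59 and 24 UMIs). Vav1 was at 1.01 in resting T cells and at 0.414 in the members without the rich barcodes. Without them Mir6236 was at 0.325, H2bc18 at 0.393 and Map4k2 at 0.501, each nearer to 1 than with all members. In resting T cells Map4k2 was at 0.768 (0.551 to 1.07), and H2bc18 had only 3 and 4 UMIs. Mir6236 had 356 and 119 UMIs and was also lower in resting T cells, at 0.455 (0.405 to 0.510), and in cycling epithelial cells, at 0.623.

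Of the leading genes of the members, Xcl1 and H1f5 had a lower share of UMIs in Adipfl/flpVilli-CreT. Xcl1 had 731 and 393 UMIs, a fold of 0.428 (0.378 to 0.485), and 0.623 (0.5495 to 0.706) without the rich barcodes, beside 0.661 in resting T cells. It was detected in 24.7% and 31.6% of members, the opposite order, and 60.7% and 59.5% of its UMIs lay in 5 cells of each library. A few cells thus set its fold. H1f5 had a fold of 0.451 (0.409 to 0.496), and 0.621 (0.561 to 0.686) without them. Mki67 moved from 0.643 to 0.835, Top2a from 0.671 to 0.9005 and Cd3g from 0.892 to 1.18 when the rich barcodes were left out. Median log2 folds behaved alike, from -0.55 to -0.10 in the DNA replication list, from -0.43 to -0.05 in the mitosis list and from -0.84 to -0.38 in the histone list. Of 34 histone genes 14 were at least 2-fold lower, and 3 without the rich barcodes. Lists of T cell genes shifted likewise, the cytotoxic list from -0.54 to -0.17 and the residence list from -0.56 to -0.18.

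**Figure D5:**
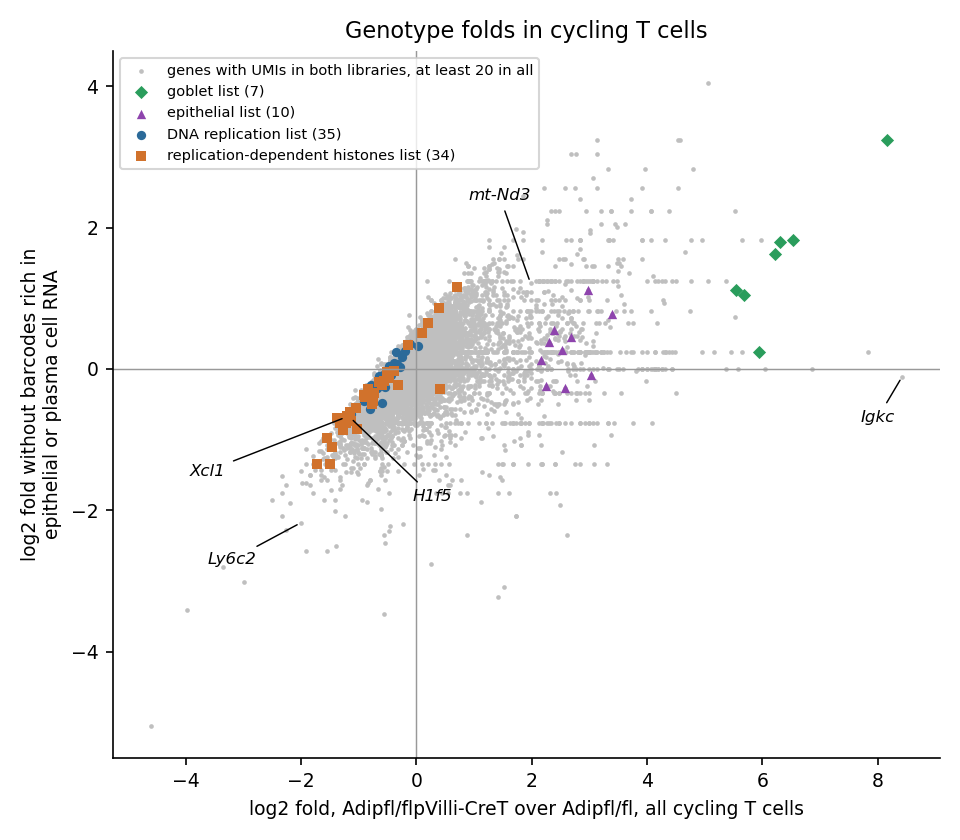
Log2 fold of Adipfl/flpVilli-CreT over Adipfl/fl in cycling T cells, with all members (x) and without the barcodes rich in epithelial or plasma cell RNA (y), coloured by gene list, with 5 genes labelled. Epithelial and goblet genes lie far to the right and much nearer to 0 on the y axis, while Xcl1, H1f5 and Ly6c2 stay below 0 on both. The lists that hold the epithelial genes and Igkc define the barcodes left out, so the shift of these genes follows from that choice.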

How the data were processed

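Single cells of mouse small intestine were captured with the 10x Genomics 3′ kit, in 1 library per genotype. The authors deposited raw UMI counts per gene and barcode, without normalization and before any quality filter. Per the submitters' processing notes, reads were converted with bcl2fastq 5.0.1 and counted with Cell Ranger on mm10, and the file headers give Cell Ranger 7.1.0. Depth was 1055868 and 1325363 UMIs in the members.

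The members, gene lists and tests were chosen with earlier results of these data known. Groups came from the genotype labels. UMIs were summed per library and class and tested in edgeR 4.0.16 (R 4.3.3, glmQLFit and glmQLFTest, robust, TMM, filterByExpr with a minimum count of 10, library as a block, two-sided, Benjamini-Hochberg over all genes), leaving out the 11 rule genes. DESeq2 1.42.0 was an alternative. Resting T cells had 0 of the 8 cycle genes, and cycling epithelial cells at least 3 UMIs of the epithelial list. Genes named are the members' leading genes, those of lists of cell cycle, T cell, metabolic and other cell type genes, the 10 largest rises and falls with an adjusted p under 0.05, the same direction in both libraries and at least 50 CPM (mitochondrial genes left out), and the 5 largest between the genotypes. Genes of these lists that the text does not name are counted only, and some are not reported here. Genes picked later, with their values in view, are named as such. Shares have exact Clopper-Pearson and folds exact conditional Poisson 95% intervals, which cover counting error only. Folds against 0 used a floor of 3 UMIs per library, and the limit on a share of 0 is 3 cells of the total. The scripts were tested on simulated counts. Doublets were not removed. RefSeq promoters of GRCm38.p6 were matched by gene symbol. Sums, intervals and plots were made in Python 3.11.15 with scipy 1.17.1, numpy 2.4.6, matplotlib 3.10.9 and pandas 2.3.3.

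Alternatives changed the limits on Cd3 UMIs, cycle genes and mitochondrial share, the count filter, the depth per cell, the test and the barcodes with RNA of other cells.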

Additional observations from a re-analysis of the deposited data

How the results depend on the processing

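With 1 library per genotype no genotype difference could be tested. With a rule of at least 2 cycle genes, 24.4% and 20.4% of T cells were cycling, without barcodes of at least 3 epithelial UMIs 15.8% and 12.1%, after thinning to 2000 UMIs 13.3% and 12.1%, and over all cells that passed the filters 3.03% and 1.76%, a ratio of 0.582. Genes higher and lower than in resting T cells numbered 409 and 106 with DESeq2, 455 and 66 with at least 2 cycle genes, 649 and 410 after thinning and 718 and 523 without barcodes of at least 3 epithelial UMIs, and the lower genes 1892 with 1 Cd3 UMI and 1429 without barcodes rich in other RNA. Against cycling epithelial cells, DESeq2 called 1013 and thinned sums 843 genes higher, 2514 were lower with no filter on low counts, and 3263 were higher and 3536 lower without rich barcodes, a setting chosen after seeing the data. Between the genotypes, 116 genes were 2-fold higher and 125 lower without barcodes of at least 3 epithelial UMIs, and 118 higher without barcodes rich in other RNA. Directions turned for H2bc4 (log2 -0.61 with 1 Cd3 UMI), for Igkc between the genotypes (-0.22 with at least 4 cycle genes, -0.11 without rich barcodes) and for H2bc18 (0.033 without barcodes of at least 3 epithelial UMIs). Of 97 genes tested against resting T cells one by one, DESeq2 ended 33 calls, the rule of at least 2 cycle genes 31, 1 Cd3 UMI 12, and leaving out the rich barcodes 1, Gzmb. Taking the fold from 1 library alone moved 58 of the 97 by more than the standard error without Adipfl/fl and 57 without Adipfl/flpVilli-CreT, and no called gene changed sign. The cause was not tested.

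Thinned to 2000 UMIs, members had Trdc alone in 30.4% and 26.5%, both chains in 16.3% and 18.4%, neither in 13.0% and 22.4%, Cd8a alone in 64.1% and 49 of 98 (50%), and no coreceptor in 27.2% and 37.8%, with Cd8a and Cd8b1 in 7.14% in Adipfl/flpVilli-CreT and Cd4 in 0% in Adipfl/fl. Without the rich barcodes as well, these were 31.1% and 30.4%, 16.7% and 21.5%, 12.2% and 13.9%, 64.4% and 55.7%, 26.7% and 29.1%, 8.86% and 0%. With 1 Cd3 UMI neither chain was found in 5.05% and 12.4%, and no coreceptor in 20.4% in Adipfl/flpVilli-CreT. There, neither chain fell to 0% with 3 Cd3 UMIs, without rich barcodes, or without barcodes of at least 3 epithelial UMIs, where no coreceptor and Cd4 were also at 0% and both chains were in 29.6% in Adipfl/fl. No paired analysis was possible because each genotype has 1 library, and the library is already a block in the tests between cell classes.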

Other observations

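The genes here were picked with their values in view. mt-Nd3, a mitochondrial gene of complex I, had 182 UMIs in the cycling T cells of Adipfl/fl and 900 in those of Adipfl/flpVilli-CreT, a fold of 3.94 (exact interval 3.36 to 4.65, counting error only). Without the barcodes rich in epithelial or plasma cell RNA the fold was 2.32 (1.92 to 2.81), in resting T cells 3.002 (2.62 to 3.45) and in cycling epithelial cells 2.38 (2.22 to 2.56), so the same direction stood in 3 cell classes of these libraries.

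Of genes lower in the cycling T cells of Adipfl/flpVilli-CreT, S100a4, a calcium-binding protein of memory T cells, had 39 UMIs in 5 cells against 2 UMIs in 2 cells. The natural killer receptor Klra7 had 41 UMIs in 3 cells against 5 in 1 cell, and Klra3 had 25 UMIs in 7 cells against 2 in 2 cells. With so few cells behind them, these values describe single cells of 1 library each.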
